A study of Homo sapiens with 12 samples.

Results

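The γ-secretase inhibitor DAPT was compared with DMSO in DAOY cells, an established human medulloblastoma line, grown on plates coated with the Notch ligand Jagged1. The comparison was between 6 of the 12 RNA-seq libraries of the series, 3 from Jagged1 plates with DAPT for 12 h and 3 from Jagged1 plates with DMSO. Each trio held 1 library of wild type cells (WT), 1 of a line with NOTCH1 knocked out by CRISPR/Cas9 (NOTCH1KO) and 1 of a line with NOTCH2 knocked out the same way (NOTCH2KO). The other 6 libraries came from these lines on control plates coated with Fc, 3 with DAPT and 3 with DMSO. Each genotype was 1 line and each culture of it 1 library, so p-values set the mean DAPT effect of the 3 lines against the spread left over all 12 libraries after genotype and culture, which may be technical. The 6 Jagged1 libraries held between 19.7 and 21.4 M reads.

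A Notch receptor bound by a ligand on a neighbouring surface is cut by γ-secretase, and the freed intracellular domain joins the DNA-binding protein CSL (RBPJ) and Mastermind-like coactivators in the nucleus. The best known targets are the HES and HEY families of transcriptional repressors. DAPT blocks the cut. γ-secretase also cuts other membrane proteins, and cells on Fc plates can still present ligands of their own.

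IL11, CHRNA9, F2RL1, HES1 and COL4A1 fell with DAPT on Jagged1 plates, and no gene rose. Of 17621 genes with a mean of at least 1 TPM (transcripts per M, a length-scaled level) over the 12 libraries, 5 fell (0.0284%) and 0 rose (0%) at a Benjamini-Hochberg adjusted p under 0.05 in limma. At an unadjusted p under 0.05 limma gave 1939 genes (11%), of which 1025 were lower (5.82%) and 914 higher (5.19%) with DAPT. In all 3 genotype pairs 3488 genes were lower (19.8%) and 3012 higher (17.1%), and the 3 DAPT libraries lay below all 3 DMSO libraries for 878 genes (4.98%) and above them for 596 (3.38%). The calls turned on single libraries. Without the NOTCH2KO library on Jagged1 with DMSO 87 genes fell and 31 rose, whereas leaving out any one of the other 5 Jagged1 libraries gave between 0 and 3 falls and between 0 and 3 rises. Without pairing by genotype 1 gene fell (IL11). With only the 6 Jagged1 libraries in the fit, or with no filter on low values, 0 genes fell, at adjusted p of 0.316 to 0.419 and of 0.0852 to 0.119 for the 5 genes. Under 21 other settings IL11 kept its call in 12, COL4A1 in 9, CHRNA9 in 8, F2RL1 in 8 and HES1 in 7, each with the same sign throughout.

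**Figure D1:**
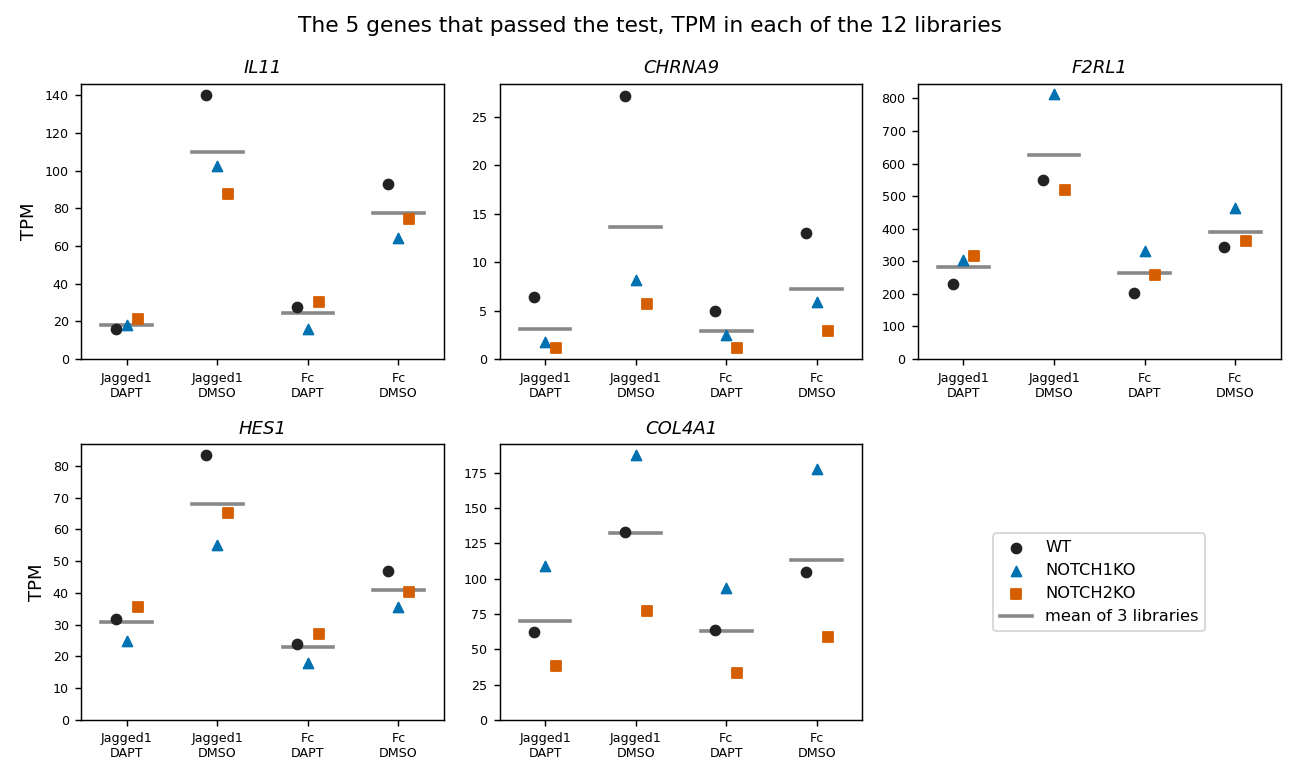
TPM in each of the 12 libraries of the 5 genes that passed the test on Jagged1, with DAPT left of DMSO on each plate, points for libraries by genotype and grey bars for means of 3 libraries. IL11 lies between 15.8 and 21.1 TPM with DAPT on Jagged1, and in each line the Fc library with DAPT lies below the Fc library with DMSO for all 5 genes.

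HES1, a repressor and a direct Notch target in many tissues, was the one Notch effector that passed. It lies at chr3:193853934-193856521 on the plus strand (ENSG00000114315, GRCh37). HES1 had 31.8, 24.99 and 35.7 TPM in WT, NOTCH1KO and NOTCH2KO cells with DAPT, against 83.6, 55 and 65.4 TPM in the same lines with DMSO. All 3 DAPT libraries lay below all 3 DMSO libraries. The log2 difference was -1.11 ± 0.12 (SE, on log2(TPM + 1), as for all differences here) at an adjusted p of 0.0478.

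The promoter windows of HES1, HES4 and HEY2 are shown because these effectors carry GTGGGAA, or TTCCCAC on the other strand, the element that CSL binds, here in capitals. They run from 250 bases before the gene start to 3 bases past it and come from RefSeq for build GRCh38.p14.
HES1, chr3:194135898-194136150, plus strand: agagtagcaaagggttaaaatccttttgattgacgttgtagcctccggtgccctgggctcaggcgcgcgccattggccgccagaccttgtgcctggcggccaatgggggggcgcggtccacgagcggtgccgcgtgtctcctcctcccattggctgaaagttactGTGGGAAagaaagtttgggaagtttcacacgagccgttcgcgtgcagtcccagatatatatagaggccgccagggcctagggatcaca
HES4, chr1:1000095-1000347, minus strand: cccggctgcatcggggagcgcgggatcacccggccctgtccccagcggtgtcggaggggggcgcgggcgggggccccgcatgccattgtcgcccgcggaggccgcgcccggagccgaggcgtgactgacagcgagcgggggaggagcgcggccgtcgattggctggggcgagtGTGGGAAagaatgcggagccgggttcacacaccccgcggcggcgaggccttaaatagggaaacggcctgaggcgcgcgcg
HEY2, chr6:125749382-125749634, plus strand: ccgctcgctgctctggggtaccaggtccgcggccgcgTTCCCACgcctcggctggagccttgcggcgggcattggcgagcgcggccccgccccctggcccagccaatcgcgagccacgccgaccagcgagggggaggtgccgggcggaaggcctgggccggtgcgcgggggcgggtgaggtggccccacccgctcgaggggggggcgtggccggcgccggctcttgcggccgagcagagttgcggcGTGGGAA
Counted from the gene start, GTGGGAA began at -85 in HES1, at -77 in HES4 and at -4 in HEY2, and TTCCCAC began at -213 in HEY2. Over windows reaching 50 bases past the start, one or the other was present for 5 of 9 HES, HEY and NRARP genes with a window (55.6%) and for 6.25% of all 35116 windows. HES5 and HEYL, among the effectors with a match, were too low to test. Among tested genes with a window the share was 5.62% of all 9907, 5.64% of the 674 lower with DAPT at an unadjusted p under 0.05 and 4.49% of the 601 higher. At an adjusted p under 0.10 it was 3.12% of the 32 lower and 0% of the 5 higher. Of the 5 genes that fell HES1 had the element, and the windows of IL11, CHRNA9, F2RL1 and COL4A1 did not hold these letters. A match is a run of letters, not a binding site.

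The other tested HES and HEY genes had lower values with DAPT in each line, apart from HES6, and none passed the threshold. HEY1, a repressor induced by Notch in endothelium and heart, had 10.9, 3.81 and 13.1 TPM with DAPT, against 56.6, 31.5 and 18.3 TPM with DMSO (in WT, NOTCH1KO and NOTCH2KO cells, the order used for every gene). Its groups did not overlap, but the NOTCH2KO pair differed far less than the other pairs, and the log2 difference of -1.83 ± 0.40 had an adjusted p of 0.151. HES4, a relative of HES1, had 0.878, 0.612 and 1.15 TPM with DAPT, against 4.62, 2.53 and 2.5 TPM with DMSO, a log2 difference of -1.14 ± 0.33 without overlap. HEY2, a partner of HEY1 in vessels, had 2.25, 2.24 and 1.39 TPM with DAPT, against 6.398, 7.84 and 2.24 TPM with DMSO, a difference of -1.03 ± 0.22. In HEY2, too, the NOTCH2KO pair differed least. NRARP, a feedback inhibitor that binds the Notch transcription complex, had 2.25, 3.74 and 2.59 TPM with DAPT, against 5.58, 5.05 and 3.19 TPM with DMSO, a difference of -0.53 ± 0.18. HES6, which antagonises HES1, had the opposite sign, with 3.17, 5.21 and 3.18 TPM with DAPT, against 1.41, 3.55 and 2.08 TPM with DMSO. Of the 10 effectors 6 were tested, of which 5 were lower (83.3%, against 5.82% of all genes) and 0 higher (0%, against 5.19%) at an unadjusted p under 0.05, and their median log2 difference was -1.07 beside 0.00 over all genes. HES2, HES5, HES7 and HEYL were below the level for testing. This list and those below were chosen with earlier results of these data known, so their shares beside all genes are descriptive only.

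**Figure D2:**
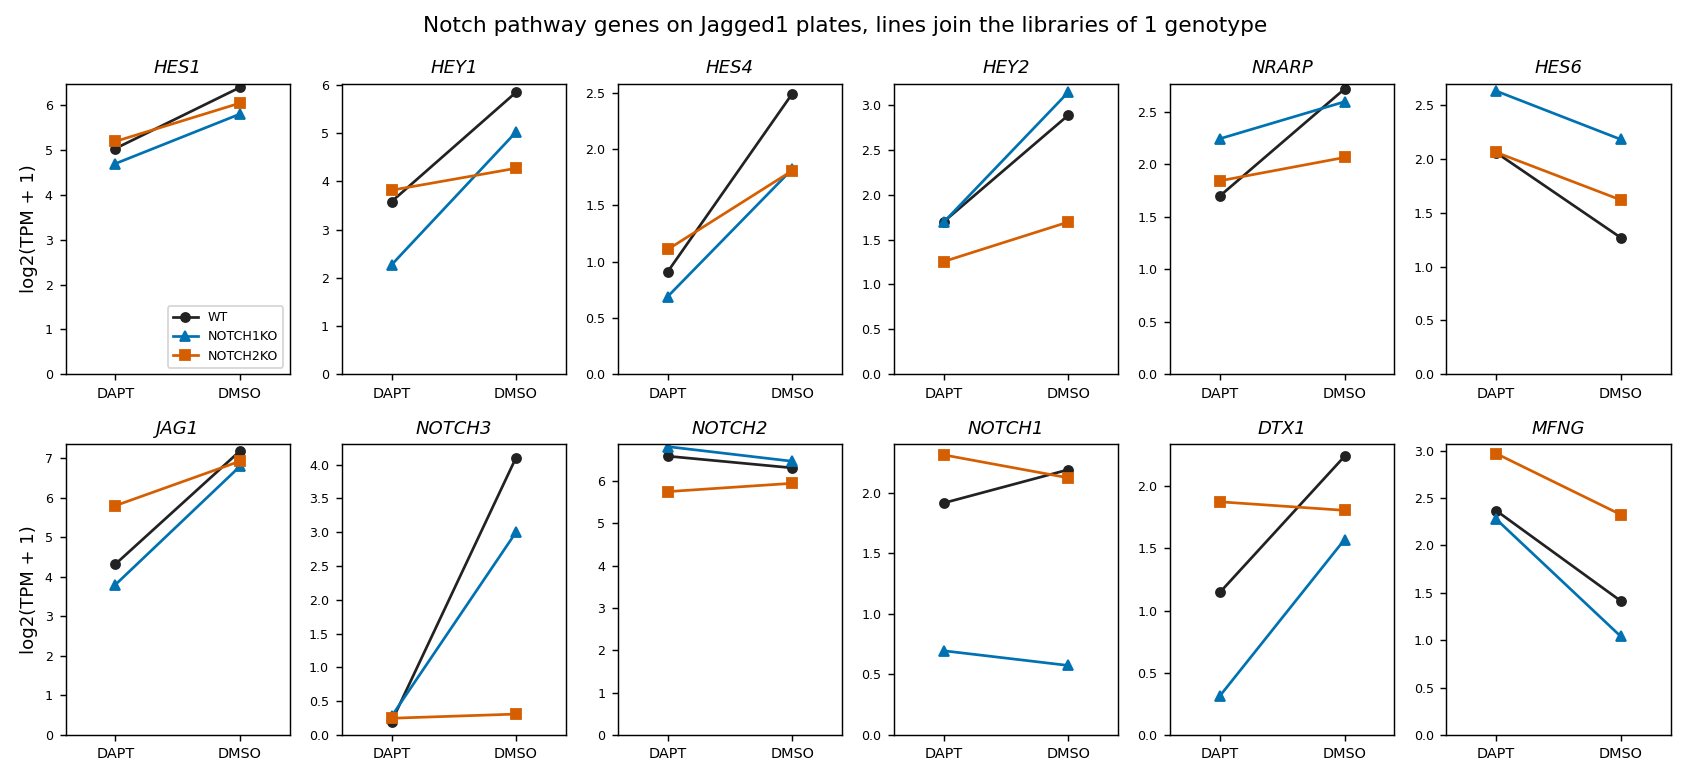
Expression, log2(TPM + 1), of 12 Notch pathway genes on Jagged1 plates with DAPT on the left and DMSO on the right of each panel, a line joining the libraries of 1 genotype. HES1 is lower with DAPT in all 3 lines, while HEY1 and NOTCH3 differ widely in WT and NOTCH1KO cells and little in NOTCH2KO cells.

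Among receptors and ligands JAG1 and NOTCH3 had the largest differences, though neither passed. JAG1, the cells' own transcript for the ligand that coats the plates, had 18.99, 12.9 and 54.8 TPM with DAPT, against 144, 110.2 and 121 TPM with DMSO. The groups did not overlap, and the log2 difference of -2.33 ± 0.36 had an adjusted p of 0.0820. NOTCH3, a receptor of mural cells, had 0.144, 0.208 and 0.186 TPM with DAPT, against 16.2, 7.0 and 0.237 TPM with DMSO. It was near 0 in every line with DAPT and, with DMSO, in the NOTCH2KO line, and the difference of -2.23 ± 0.77 had an adjusted p of 0.344. Without the NOTCH2KO library on Jagged1 with DMSO, HEY1, NOTCH3 and JAG1 passed, at log2 differences of -2.41, -3.31 and -2.83. That setting, which gave 87 falls, drops 1 library of the pair that differed least in these genes. With all NOTCH2KO libraries left out 0 genes fell on Jagged1. NOTCH1 had 2.78, 0.619 and 3.97 TPM with DAPT, against 3.57, 0.488 and 3.36 TPM with DMSO, and NOTCH2 had 94.9, 111 and 52.7 TPM with DAPT, against 78.1, 87.2 and 60.5 TPM with DMSO. Each receptor was lowest in its own knockout line in both cultures, and their log2 differences with DAPT were 0.01 ± 0.16 for NOTCH1 and 0.14 ± 0.15 for NOTCH2. The other tested ligands, DLL1, DLL3, JAG2 and DNER, differed by between -0.19 and 0.37.

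None of the genes of receptor cleavage or of the nuclear complex passed. The 8 γ-secretase subunits and ADAM sheddases had a median log2 difference of -0.14. PSEN2, a subunit of the protease, had 13.1, 20.6 and 26.5 TPM with DAPT, against 8.704, 16.7 and 20.9 TPM with DMSO, higher in each line at an adjusted p of 0.312. The 12 nuclear partners and repressors had a median of -0.08, with the coactivator MAML3 lowest at -0.48. Of 16 tested genes for Notch glycosylation and turnover, MFNG, a glycosyltransferase that tunes ligand responses, had 4.16, 3.85 and 6.84 TPM with DAPT, against 1.67, 1.06 and 4.01 TPM with DMSO. It was higher in each line at an adjusted p of 0.101. Of 22 tested γ-secretase substrates other than Notch, 3 were lower (13.6%, against 5.82% of all genes) and 2 higher (9.09%, against 5.19%) at an unadjusted p under 0.05, among them IGF1R, the insulin-like growth factor receptor, which had 18.6, 23.3 and 14.1 TPM with DAPT, against 38.9, 50.8 and 23.3 TPM with DMSO.

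Of 19 tested genes reported as Notch targets in other tissues, 9 were lower (47.4%, against 5.82% of all genes) and 1 higher (5.26%, against 5.19%) at an unadjusted p under 0.05, none passed, and the median log2 difference was -0.18. PDGFRB, a receptor kinase of mesenchymal cells, had 5.45, 14.8 and 4.07 TPM with DAPT, against 73.3, 65.99 and 7.34 TPM with DMSO. Its adjusted p was 0.205, and as in HEY1 the NOTCH2KO pair differed least.

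EPAS1 and HIF1A, which encode the oxygen-regulated subunits HIF2α and HIF1α, had lower values with DAPT in each line and did not pass. EPAS1 had 19.5, 19.3 and 42.3 TPM with DAPT, against 42.9, 24.8 and 60.3 TPM with DMSO, a log2 difference of -0.65 ± 0.22 at an adjusted p of 0.349. HIF1A had 270.2, 178 and 289.9 TPM with DAPT, against 399, 237 and 355 TPM with DMSO, a difference of -0.42 ± 0.11 at an adjusted p of 0.247. In both the ranges of the cultures overlapped. VEGFA, a target of both factors, had 230.3, 63.9 and 119 TPM with DAPT, against 195, 89.5 and 132 TPM with DMSO, higher with DAPT in WT and lower in the other lines. Of 38 tested hypoxia-induced and glycolytic genes 7 were lower (18.4%, against 5.82% of all genes) and 5 higher (13.2%, against 5.19%) at an unadjusted p under 0.05, with a median of -0.01.

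IL11, a cytokine of the IL6 family that signals through gp130 and STAT3, had the largest of the 5 falls. It lies at chr19:55875757-55881831 on the minus strand (ENSG00000095752, GRCh37). IL11 had 15.8, 17.9 and 21.1 TPM with DAPT, against 139.9, 103 and 87.7 TPM with DMSO. The DAPT libraries lay close together and far below the DMSO libraries, and the log2 difference was -2.51 ± 0.23, a fold of 0.176, at an adjusted p of 0.0237.

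Of 29 tested NF-κB targets, chemokines and cytokines IL11 fell, 15 were lower (51.7%, against 5.82% of all genes) and 2 higher (6.9%, against 5.19%) at an unadjusted p under 0.05, and the median log2 difference was -0.30. IL6, CSF3 and CXCL3 of this list, and PTGS2 of a list of prostaglandin genes, had adjusted p between 0.05 and 0.10. They are named after their values were seen. At an unadjusted p under 0.05 in limma 4 of 10 tested prostaglandin genes were lower (40%, against 5.82% of all genes). In the same test 1 was higher (10%, against 5.19%), and the median log2 difference was -0.16. IL6, the founding cytokine of its family, had 122, 151 and 256 TPM with DAPT, against 619, 656 and 461 TPM with DMSO, a log2 difference of -1.76 ± 0.28. CSF3, the granulocyte colony-stimulating factor, had 4.59, 0.388 and 6.94 TPM with DAPT, against 17.9, 6.202 and 14.2 TPM with DMSO, lower in each line although the groups overlapped. CXCL3, a chemokine that attracts neutrophils, had 5.82, 3.58 and 7.72 TPM with DAPT, against 23.6, 9.06 and 13.95 TPM with DMSO, and its groups did not overlap. PTGS2, the inducible cyclooxygenase, had 62.1, 57.1 and 111 TPM with DAPT, against 234, 181 and 189.8 TPM with DMSO, again without overlap. In all 4 genes the NOTCH2KO library was the highest with DAPT. Of 11 tested members of the IL6 family and its STAT3 pathway 2 were lower (18.2%, against 5.82% of all genes) and 0 higher (0%, against 5.19%) at an unadjusted p under 0.05. The 2 were IL11 and IL6, which the cytokine list above also holds.

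F2RL1 and CHRNA9 encode surface receptors. F2RL1, the protease-activated receptor PAR2, lies at chr5:76114758-76131140 on the plus strand (ENSG00000164251, GRCh37) and had 229, 303 and 315 TPM with DAPT, against 548, 815 and 518 TPM with DMSO. The groups did not overlap, and the log2 difference was -1.13 ± 0.13 at an adjusted p of 0.0478. F2R, the thrombin receptor PAR1, had 54.9, 56.5 and 65.5 TPM with DAPT, against 99.5, 123 and 97.04 TPM with DMSO, without overlap, at an adjusted p of 0.0708. CHRNA9, the α9 subunit of nicotinic acetylcholine receptors, lies at chr4:40337346-40357234 on the plus strand (ENSG00000174343, GRCh37) and had 6.38, 1.77 and 1.18 TPM with DAPT, against 27.2, 8.198 and 5.66 TPM with DMSO. Its level differed so much between lines that the groups overlapped, yet it was lower in each line, with a log2 difference of -1.76 ± 0.17 at an adjusted p of 0.0237.

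COL4A1, a chain of the type IV collagen of basement membranes, had the smallest of the 5 falls. It lies at chr13:110801318-110959496 on the minus strand (ENSG00000187498, GRCh37) and had 62.4, 109 and 38.3 TPM with DAPT, against 133, 188 and 77.3 TPM with DMSO. The ranges overlapped because the lines differed, while within the lines the log2 difference was -1.08 in WT, -0.78 in NOTCH1KO and -0.99 in NOTCH2KO cells. The fitted log2 difference was -0.95 ± 0.09 at an adjusted p of 0.0237. Of 25 tested collagens and basement membrane genes COL4A1 fell, 9 were lower (36%, against 5.82% of all genes) and 1 higher (4%, against 5.19%) at an unadjusted p under 0.05, and the median was -0.38. Of 29 tested TGF-β and BMP genes none passed, 11 were lower (37.9%, against 5.82% of all genes) and 1 higher (3.45%, against 5.19%) at an unadjusted p under 0.05, and the median was -0.27. INHBA, the activin A subunit, had 217, 330.4 and 227 TPM with DAPT, against 488, 796 and 539.5 TPM with DMSO, without overlap, at an adjusted p of 0.0820. Of 23 tested integrins and laminins none passed, and 8 were lower (34.8%, against 5.82% of all genes) and 1 higher (4.35%, against 5.19%) at an unadjusted p under 0.05. LAMB3, a laminin chain of epithelial basement membranes, had 23.04, 14.9 and 10.6 TPM with DAPT, against 52.2, 35.5 and 15.6 TPM with DMSO. The fibroblast and mesenchymal marker list includes some of these matrix genes. Of 13 tested markers none passed, 5 were lower (38.5%, against 5.82% of all genes) and 0 higher (0%, against 5.19%) at an unadjusted p under 0.05, and the median was -0.38. PDGFRB stood at -2.11, FAP at -0.83 and COL3A1, lower in 2 of the 3 lines, at -1.33. Of the 13 markers 9 had a negative difference and 4 were lower in all 3 lines. COL1A2 stood at 0.02, and the highest difference in the list was 0.25. The part of these markers in the matrix values was not tested.

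No member of the lists for growth, cholesterol synthesis, immediate-early response or interferon passed. Of 45 tested cell cycle and replication genes 0 were lower (0%, against 5.82% of all genes) and 4 higher (8.89%, against 5.19%) at an unadjusted p under 0.05, with a median log2 difference of 0.13. Of 22 tested cholesterol synthesis genes 2 were lower (9.09%, against 5.82% of all genes) and 6 higher (27.3%, against 5.19%) at an unadjusted p under 0.05, with a median of 0.29. DHCR7, which makes the last step to cholesterol, had 96.4, 85.5 and 63.2 TPM with DAPT, against 39.9, 64.1 and 53.8 TPM with DMSO, at an adjusted p of 0.386. Of 35 tested immediate-early and MAPK feedback genes 11 were lower (31.4%, against 5.82% of all genes) and 0 higher (0%, against 5.19%) at an unadjusted p under 0.05, with a median of -0.26. DUSP1, a MAP kinase phosphatase, had 26.5, 39.1 and 71.9 TPM with DAPT, against 66.1, 94.5 and 92.1 TPM with DMSO. Of 37 tested interferon-stimulated genes 1 was lower (2.7%, against 5.82% of all genes) and 2 higher (5.41%, against 5.19%) at an unadjusted p under 0.05, with a median of 0.02.

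**Figure D3:**
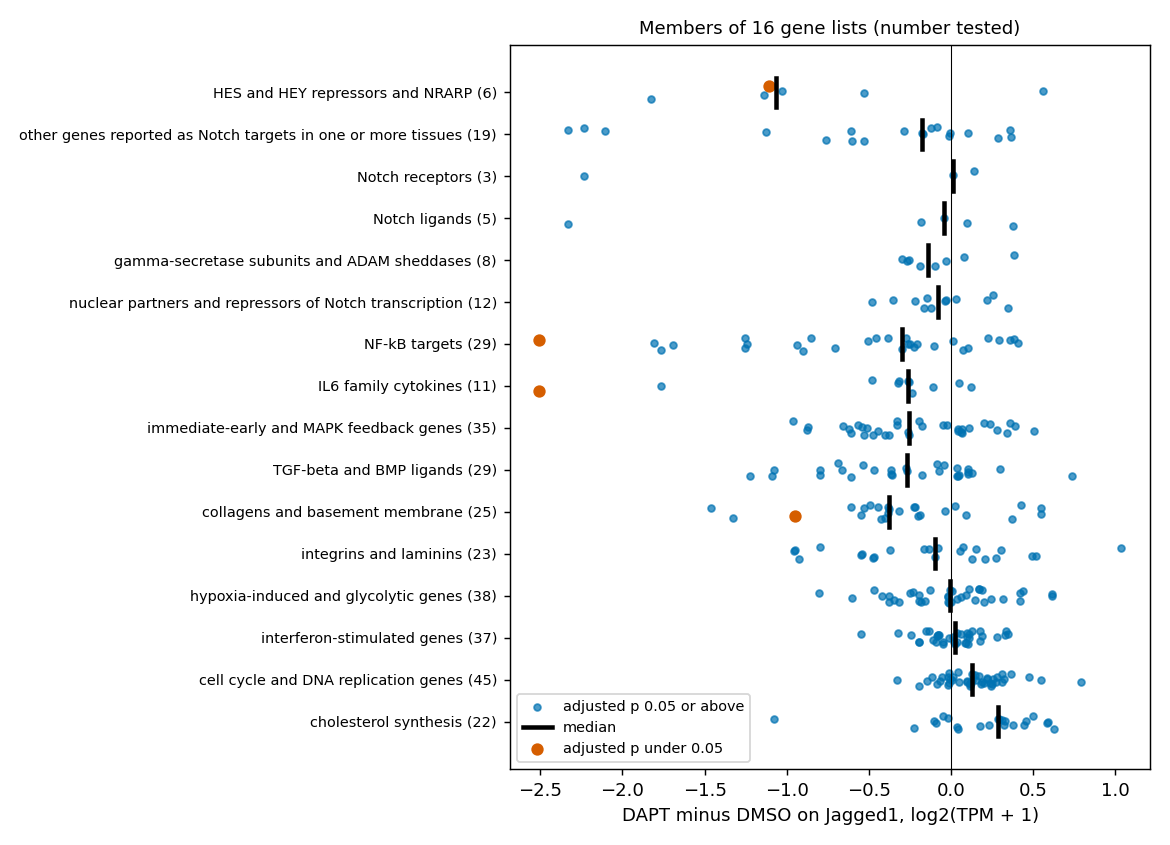
Log2 difference of DAPT minus DMSO on Jagged1, log2(TPM + 1), for the tested members (points) of 16 gene lists, with the median of each list as a black bar and the number tested in brackets. The median of the HES, HEY and NRARP genes is -1.07, and those of the other lists shown lie between -0.38 and 0.29.

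At an adjusted p under 0.10, 44 genes were lower (0.25%) and 9 higher (0.0511%), and those named here were chosen after their values were seen. WNT5A, a non-canonical WNT ligand, had 78.3, 95.6 and 81.1 TPM with DAPT, against 230.0, 205 and 171 TPM with DMSO. SAT1, the rate-limiting enzyme of polyamine breakdown, had 69.9, 17 and 39.5 TPM with DAPT, against 248, 105 and 72.01 TPM with DMSO. In neither gene did the groups overlap. KLF9, a zinc-finger factor induced by glucocorticoids, had 14.1, 7.397 and 10.1 TPM with DAPT, against 70.2, 29.04 and 20.1 TPM with DMSO, without overlap. HAS2, a hyaluronan synthase, had 12.6, 9.35 and 9.38 TPM with DAPT, against 27.8, 16.8 and 26.8 TPM with DMSO, without overlap. C1GALT1C1, a chaperone of O-glycan synthesis, had the largest difference of the named genes. C1GALT1C1 had 11.9, 4.77 and 0.524 TPM with DAPT, against 47.3, 57.04 and 50.2 TPM with DMSO, at an adjusted p of 0.0830. Among the higher genes FADS2, a fatty acid desaturase, had 36.9, 32.6 and 54.3 TPM with DAPT, against 21.8, 19.9 and 33.9 TPM with DMSO, higher in each line although the groups overlapped. UQCRB, a subunit of respiratory complex III, had 166, 122 and 198 TPM with DAPT, against 102, 77.8 and 98.3 TPM with DMSO, and its groups did not overlap.

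The difference on Fc plates came from the other 6 libraries, while its error was estimated together with that on Jagged1 and is the same for a given gene. On Fc 6 genes passed (0.0341%), 3 higher and 3 lower (0.017% each), and 1082 had an unadjusted p under 0.05 (6.14%), of which 597 were lower (3.39%). Among the 6, NPIPA2, NPIPA3 and CTD-2210P15.2 were listed at 0 in a whole Fc culture, and with such genes left out 0 genes fell or rose on Fc. COL4A1 was called on both plates, 1 of the 5 falls on Jagged1 and 1 of the 3 on Fc, and its Fc call was among those lost in that setting. On Fc COL4A1 had 63.4, 93.1 and 33.3 TPM with DAPT, against 104, 178 and 58.9 TPM with DMSO, a log2 difference of -0.81 ± 0.09 at an adjusted p of 0.0372. IL11 on Fc had 27.4, 15.7 and 30.3 TPM with DAPT, against 92.7, 64.5 and 74.5 TPM with DMSO, and HES1 on Fc had 23.9, 17.9 and 27.02 TPM with DAPT, against 46.99, 35.5 and 40.2 TPM with DMSO. Neither passed there, at differences of -1.66 ± 0.23 for IL11 and -0.82 ± 0.12 for HES1, although both were lower with DAPT in each line. All 5 genes that fell on Jagged1 were lower on Fc in each line. Of the 44 genes lower at an adjusted p under 0.10 on Jagged1, 40 were lower on Fc (90.9%, against 49.2% of all genes), with a median log2 difference of -0.69 on Fc and -1.11 on Jagged1, where they had been chosen. Over both plates together 43 genes fell (0.244%) and 12 rose (0.0681%), with the 5 Jagged1 calls among them, as well as NPIPA2, NPIPA3 and CTD-2210P15.2, listed at 0 in a whole Fc culture.

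**Figure D4:**
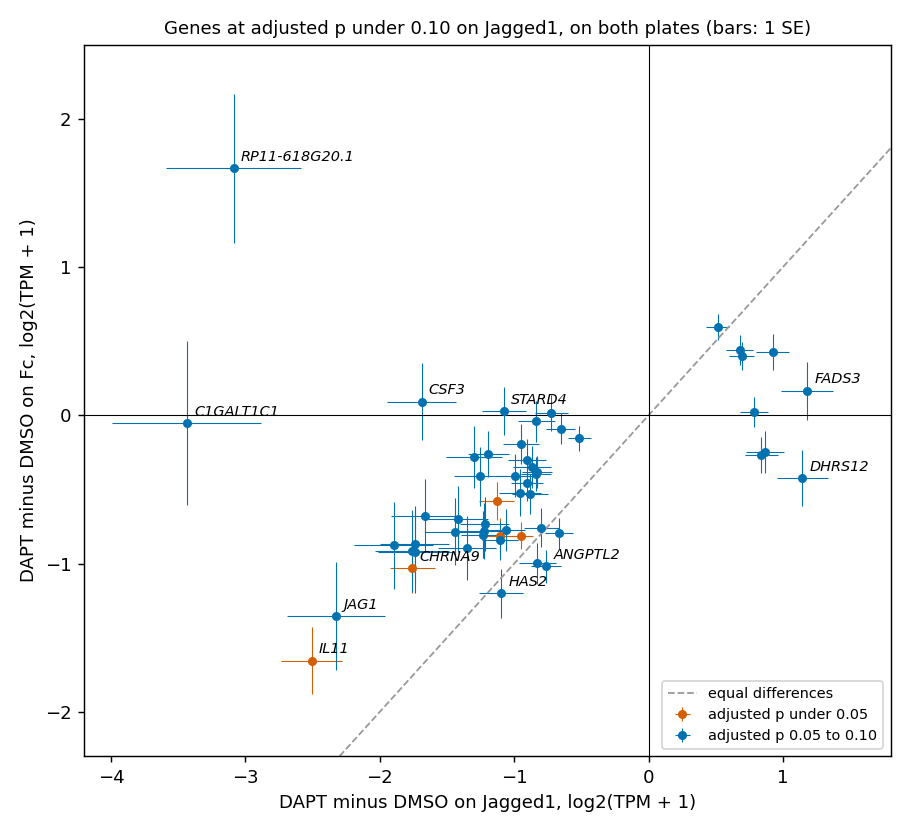
Log2 difference of DAPT minus DMSO, log2(TPM + 1), on Jagged1 (horizontal) and on Fc (vertical) for the 53 genes at an adjusted p under 0.10 on Jagged1, with bars of 1 SE and a dashed line of equal differences. Of the 44 genes lower on Jagged1, 40 are lower on Fc, among them C1GALT1C1 at only -0.05. The 4 that are not include CSF3, STARD4 and RP11-618G20.1, the last at -3.09 on Jagged1 and 1.66 on Fc.

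The difference between the plates was tested directly. It passed for 3 genes (0.017%), 1 higher (0.00568%) and 2 lower (0.0114%), each listed at 0 in a whole Fc culture, and 1000 genes had an unadjusted p under 0.05 (5.68%). None of the 5 genes that fell on Jagged1 passed, with adjusted p between 0.802 and 0.829, although each had the larger log2 difference on Jagged1. HEY1 on Fc had 7.498, 4.64 and 10.1 TPM with DAPT, against 11.5, 7.85 and 11.04 TPM with DMSO, a log2 difference of -0.44 ± 0.40, and its difference between plates of -1.38 had an adjusted p of 0.802. CSF3 differed by -1.69 on Jagged1 and 0.09 on Fc, and STARD4, a cholesterol carrier, by -1.08 and 0.03, each with an adjusted p of 0.765 for the difference.

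Jagged1 against Fc in DMSO shares its Jagged1 libraries with the main comparison, and so does Jagged1 with DAPT against Fc with DMSO, so their values are only set side by side. Each called 2 genes, both higher (0.0114%), namely NPIPA2 and NPIPA3, listed at 0 in all 3 Fc libraries with DMSO, and 0 with such genes left out. They gave, at an unadjusted p under 0.05, 1901 genes (10.8%) and 1107 (6.28%). HES1 differed by 0.71 with Jagged1 in DMSO and by -0.40 with Jagged1 and DAPT. For IL11 the values were 0.49 and -2.01, for JAG1 1.13 and -1.20, and for HEY1 1.59 and -0.24. For COL4A1 they were 0.27 and -0.68, and for EPAS1 1.13 and 0.48.

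Among the genes lower on Jagged1 the NOTCH2KO pair most often differed least, each value resting on 1 pair of libraries. Of the 44 genes lower at an adjusted p under 0.10 the smallest difference was that of the NOTCH2KO pair for 32 (72.7%), of the NOTCH1KO pair for 9 and of the WT pair for 3. Of the 1025 lower at an unadjusted p under 0.05 it was that of the NOTCH2KO pair for 537 (52.4%), of the NOTCH1KO pair for 278 and of the WT pair for 210. The same share over all tested genes was not computed, and the genes were chosen on these same differences. The counts are therefore descriptive only. Over the 12899 genes with a mean of at least 5 TPM the NOTCH2KO pair also had the smallest spread of differences on Jagged1. The SD was 0.506 in NOTCH2KO, 0.5585 in NOTCH1KO and 0.541 in WT cells. For the 9 genes higher at an adjusted p under 0.10 the NOTCH2KO pair had the largest median, 0.89, beside 0.72 in NOTCH1KO and 0.73 in WT cells. For the 914 higher at an unadjusted p under 0.05 it had the smallest, 0.31, beside 0.56 in NOTCH1KO and 0.57 in WT cells. The medians of the 44 on Jagged1 were -0.89 in NOTCH2KO, -1.13 in NOTCH1KO and -1.22 in WT cells, and on Fc -0.56, -0.62 and -0.66 in the same order. Over the HES, HEY and NRARP genes the median was -0.45 in NOTCH2KO, -1.12 in NOTCH1KO and -1.28 in WT cells. The DAPT effect in NOTCH2KO minus that in WT, over both plates, was called for 0 genes in limma (0%), with 592 at an unadjusted p under 0.05 (3.36%) and 1 call with library weights or with no filter. The effect in NOTCH1KO minus that in WT was called for 2 genes (0.0114%), 1 higher and 1 lower (0.00568% each), both listed at 0 in several libraries.

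**Figure D5:**
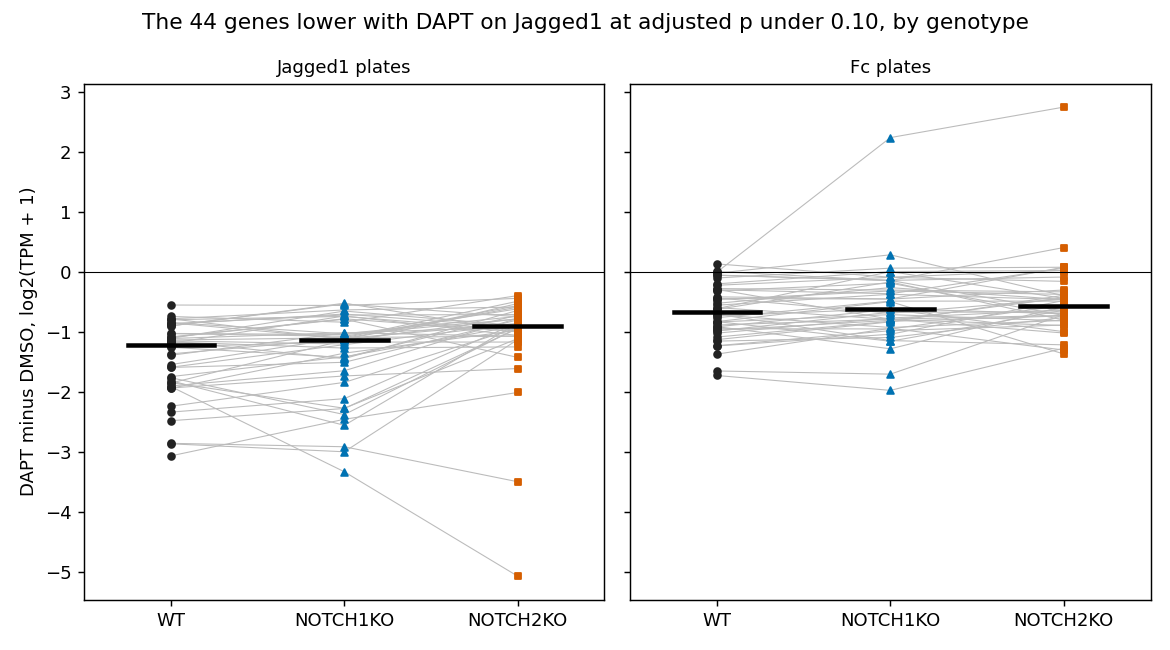
Log2 difference of DAPT minus DMSO, log2(TPM + 1), in each genotype pair on Jagged1 (left) and Fc (right) for the 44 genes lower at an adjusted p under 0.10 on Jagged1, with grey lines joining 1 gene and black bars for medians. On Jagged1 the medians are -1.22 in WT, -1.13 in NOTCH1KO and -0.89 in NOTCH2KO cells.

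Summed levels of cell type markers overlapped between the Jagged1 cultures, and their part in the results was not tested. In bulk RNA fewer cells of a type and less RNA per cell cannot be told apart. The 14 fibroblast and mesenchymal genes summed to between 8104 and 10460 TPM with DAPT and between 9150 and 11010 TPM with DMSO, a sum made up mostly of VIM, at 2784 to 4626 TPM, and FN1, at 2458 to 6528 TPM. On Fc the same sum did not overlap, at 8495 to 9171 TPM with DAPT and 10550 to 11540 TPM with DMSO. Of 13 blood and endothelial markers 10 were under 1 TPM in all 12 libraries, with PTPRC, CD3E and PECAM1 at 0. On Jagged1 plates LCP1 lay at 4.22 to 17.4 TPM, TEK at 2.72 to 9.01 TPM and ERG at 0.747 to 6.16 TPM. The 13 markers summed to between 18.2 and 22.8 TPM with DAPT on Jagged1 and between 15.1 and 20.6 TPM with DMSO. The 23 neural and cerebellar genes summed to between 234 and 286 TPM with DAPT and between 188 and 271 TPM with DMSO, with 6 under 1 TPM throughout, among them ATOH1, NEUROD1 and DCX, which mark granule cell precursors and neurons. The 11 glial genes summed to between 8.56 and 15.4 TPM with DAPT and between 9.67 and 17.4 TPM with DMSO, with 6 under 1 TPM throughout. The 14 epithelial genes summed to between 750.0 and 1012 TPM with DAPT and between 702 and 1027 TPM with DMSO. That sum was made up mostly of KRT18, at 568 to 878 TPM, and KRT8, at 110 to 136 TPM, on Jagged1. Of the 14 genes 6 were under 1 TPM throughout, among them CDH1 and EPCAM.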

How the data were processed

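Stranded poly-A libraries of 12 DAOY cultures had been sequenced as single reads of 51 bases. The submitters' processing notes named bcl2fastq 2.17, CASAVA and the build GRCh37. For aligner, quantifier and annotation: not given in the sources used here. Deposited TPM is a level scaled for gene length whose sum is equal in all libraries, the deposited FPKM is scaled for gene length and reads, and the deposited coverage is the mean depth per base. Depth, from the ratio of coverage to FPKM, was 18.3 to 22.4 M reads.

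Rows sharing a gene identifier were summed. In R 4.3.3, limma 3.58.1 with a mean-variance trend was fitted to log2(TPM + 1) of the 17621 genes averaging 1 TPM or more, with additive genotype and culture terms over 12 libraries (6 residual degrees of freedom), and p-values were adjusted by Benjamini and Hochberg. Such folds understate changes of low genes. Effects by line used genotype by drug terms over both plates (4 residual degrees of freedom). The pairing comes from the lines. On Jagged1 the deviations of DAPT and DMSO libraries from their group means correlated at 0.365 to 0.451 within a line and at -0.299 to -0.158 between lines. Deviations in a group cancel out, so values between lines must be negative on average where those within a line are positive. The fit was tested on simulated data with 200 changed genes.

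The members and the 42 gene lists were chosen with earlier results of these data known, and 810 of 812 listed symbols were found. Named genes were all members of the receptor, ligand, γ-secretase, effector and HIF lists and of a list of genes the study named, the 20 largest falls and rises that passed, up to 4 passing members of each other list or else the 2 largest, and the 5 largest plate differences of each sign. Clone names and pseudogenes, genes at an adjusted p between 0.05 and 0.10, and genes called in other comparisons were added after their values were seen. Some single genes are not reported here. Gene coordinates are those of the deposited tables, and promoter windows, matched by symbol, are from RefSeq (GRCh38.p14). Alternatives were a pseudocount of 0.1, no filter, a mean of at least 5 TPM, FPKM or coverage for TPM, median-centred libraries, no trend, library weights, a log2 difference of at least 1, no genotype term, only the libraries compared, and each library or line left out.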

Additional observations from a re-analysis of the deposited data

Results flagged for a closer look

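The DAPT effect on Jagged1 minus that on Fc passed for 3 genes, each through a culture listed at 0, so that the fitted values are no folds. NPIPA2 had 7.699, 8.72 and 6.97 TPM in WT, NOTCH1KO and NOTCH2KO cells with DAPT on Jagged1, against 8.02, 9.96 and 7.07 TPM with DMSO. On Fc it had 8.17, 10.4 and 7.499 TPM with DAPT and was listed at 0 in all 3 libraries with DMSO, for a fitted difference of -3.35. NPIPA3, a near-identical copy, was also listed at 0 in all 3 Fc libraries with DMSO and gave -3.32. How reads were assigned among such copies was not tested. The pseudogene CTD-2210P15.2 was listed at 0 in the 3 Fc libraries with DAPT and above 5 TPM in the other 9, for a fitted difference of 2.65. With genes listed at 0 in a whole culture left out, 0 genes passed.

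The DAPT effect in NOTCH1KO minus that in WT passed for PDXP, with a fitted value of -5.54, and for the pseudogene RPL17P50, with 3.89. PDXP was listed at 0 in both NOTCH1KO libraries with DAPT and in the 3 Fc libraries with DMSO. RPL17P50 had 14.2 and 13.4 TPM in the NOTCH1KO libraries with DAPT and was listed at 0 in the other 10.

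CLASRP, DHRS12 and TSEN54 were higher with DAPT in all 3 pairs on Jagged1 and lower with DAPT in all 3 pairs on Fc. The differences between the effects were 1.11 for CLASRP, 1.57 for DHRS12 and 1.11 for TSEN54, and none passed the test over all genes in limma, with adjusted p of 0.605, 0.605 and 0.435. Opposite signs in all pairs of both plates occurred in 3.91% of all tested genes.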

How the results depend on the processing

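The main counts were 5 falls and 0 rises on Jagged1, 3 falls and 3 rises on Fc, 3 plate differences, 2 genes higher and 0 lower with Jagged1 in DMSO, 2 for Jagged1 with DAPT against Fc with DMSO, 2 for NOTCH1KO minus WT and 0 for NOTCH2KO minus WT. A pseudocount of 0.1 gave 1 gene for NOTCH1KO minus WT. No filter gave 0 falls on Jagged1, 6 rises on Fc, 6 falls on Fc, 6 plate differences, 2 genes lower with Jagged1 in DMSO, 4 genes for Jagged1 with DAPT against Fc with DMSO and 1 gene for NOTCH2KO minus WT. A mean of at least 5 TPM gave 1 gene for NOTCH1KO minus WT. FPKM gave 2 falls on Jagged1. Coverage gave 1 gene lower with Jagged1 in DMSO, 5 genes for Jagged1 with DAPT against Fc with DMSO and 5 genes for NOTCH1KO minus WT. Median-centred libraries gave 3 falls on Jagged1. No trend gave 2 falls on Jagged1 and 1 fall on Fc. Library weights gave 2 rises on Jagged1, 11 falls on Jagged1, 10 rises on Fc, 24 falls on Fc, 9 genes for Jagged1 with DAPT against Fc with DMSO, 1 gene for NOTCH1KO minus WT and 1 gene for NOTCH2KO minus WT. Only the 6 libraries compared gave 0 falls on Jagged1, 0 rises on Fc, 0 falls on Fc, 0 genes higher with Jagged1 in DMSO and 0 genes for Jagged1 with DAPT against Fc with DMSO. Leaving out the WT libraries gave 3 rises on Jagged1, 0 falls on Jagged1, 5 rises on Fc, 4 genes higher with Jagged1 in DMSO, 3 genes lower with Jagged1 in DMSO and 7 genes for Jagged1 with DAPT against Fc with DMSO. Leaving out the NOTCH1KO libraries gave 4 rises on Jagged1, 2 falls on Jagged1, 6 plate differences, 4 genes higher with Jagged1 in DMSO, 1 gene lower with Jagged1 in DMSO and 5 genes for Jagged1 with DAPT against Fc with DMSO. Leaving out the NOTCH2KO libraries gave 0 falls on Jagged1, 0 plate differences, 2 genes lower with Jagged1 in DMSO and 4 genes for Jagged1 with DAPT against Fc with DMSO. Leaving out genes listed at 0 in a culture, chosen after seeing the data, gave 0 rises on Fc, 0 falls on Fc, 0 plate differences, 0 genes higher with Jagged1 in DMSO and 0 genes for Jagged1 with DAPT against Fc with DMSO. DAPT over both plates, also chosen after seeing the data, gave 12 rises and 43 falls. An adjusted p under 0.10, likewise, gave 9 rises on Jagged1 and 44 falls on Jagged1. Leaving out 1 library gave 0 to 31 rises on Jagged1, 0 to 87 falls on Jagged1, 2 to 3 rises on Fc, 1 to 5 falls on Fc, 3 to 5 plate differences, 2 to 27 genes higher with Jagged1 in DMSO, 0 to 15 genes lower with Jagged1 in DMSO and 2 to 5 genes for Jagged1 with DAPT against Fc with DMSO. Without the genotype block that pairs the libraries, 1 gene fell on Jagged1 and 1 on Fc. The cause of these differences was not tested. Settings not named for a comparison kept its count within 1.5 times, and leaving out libraries or lines was not run for the genotype differences. For 143 named genes, 2617 of 2971 values under other settings kept their call and direction or, if uncalled, moved by less than 1 SE. Another 250 uncalled values moved by more than 1 SE, 61 called values were lost and 43 became called. Of called values 0 changed sign, while 47 values called in neither fit did. In a gene of 1 kb, 1 read was worth 0.0947 to 0.117 TPM.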

Other observations

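MT-ND2, a mitochondrially encoded subunit of respiratory complex I, had 164, 1568 and 322 TPM in WT, NOTCH1KO and NOTCH2KO cells with DAPT on Jagged1, against 1817, 1681 and 2005 TPM with DMSO. The low values stood in 2 of 3 lines, and MT-ND2 had an adjusted p of 0.297. Of 15 tested mitochondrially encoded genes 0 passed, and the median log2 difference was -0.02. At an unadjusted p under 0.05 in limma 2 of them were lower (13.3%, against 5.82% of all genes). In the same test 0 were higher (0%, against 5.19%). SHH, the ligand of a pathway active in one class of medulloblastoma, had 1.78, 0.899 and 11.4 TPM with DAPT on Jagged1, against 0.484, 0.203 and 8.203 TPM with DMSO. It was higher with DAPT in each line, at an adjusted p of 0.294.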
